A study of Homo sapiens with 6 samples.

Results

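AN3-CA, a line derived from a human endometrial cancer, was compared with and without acidic fibroblast growth factor (aFGF, the protein of the FGF1 gene). The comparison used the 2 DMSO arrays and the 2 aFGF arrays, 4 of the 6 arrays of the study, and took in 19040 genes. Cells in all groups were grown for 24 h in medium with serum and then held for 18 h without serum, with DMSO alone or with DMSO and 10 ng/mL aFGF. The remaining 2 arrays came from cells given 300 nM AZD4547, an inhibitor of the FGF receptor kinases, and the same dose of aFGF. The labels call the 2 samples of a group biological replicates of 1 cell line plated in 6 dishes, so the p-values measure the spread between dishes and not between lines or patients.

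Acidic FGF binds the FGF receptors together with heparan sulfate on the cell surface. The receptor kinases then phosphorylate the adaptor FRS2, which feeds the RAS, RAF, MEK and ERK cascade and the PI3K and AKT branch. ERK acts on transcription through ETS, SRF, EGR and AP-1 factors, and AKT keeps the FOXO factors out of the nucleus. AN3-CA is known to carry an activating mutation of FGFR2, so the DMSO cells are not a state without receptor signalling. FGF signalling in the uterus is known for its part in the exchange between stroma and epithelium.

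Promoters of 4 of the genes with the largest rises are shown first because each holds a match to one of the motifs searched, the CArG box of SRF, the AP-1 site and the cAMP response element (CRE). Each run is the 250 bases before the RefSeq start on GRCh38.p14, read 5′ to 3′ on the strand of the gene, with motif matches in capitals.
EGR1, CArG boxes, chr5:138465229-138465478, plus strand: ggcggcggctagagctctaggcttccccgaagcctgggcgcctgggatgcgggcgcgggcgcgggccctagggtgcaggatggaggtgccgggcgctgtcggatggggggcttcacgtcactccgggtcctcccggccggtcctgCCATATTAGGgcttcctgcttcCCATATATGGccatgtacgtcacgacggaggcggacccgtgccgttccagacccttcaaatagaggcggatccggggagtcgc
VGF, CRE, chr7:101165570-101165819, minus strand: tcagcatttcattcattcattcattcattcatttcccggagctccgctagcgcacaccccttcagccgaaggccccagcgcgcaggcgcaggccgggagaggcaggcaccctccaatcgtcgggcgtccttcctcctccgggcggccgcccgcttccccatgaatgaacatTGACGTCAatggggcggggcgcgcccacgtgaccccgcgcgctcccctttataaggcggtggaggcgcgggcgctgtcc
EMP1, AP-1 sites, chr12:13196476-13196725, plus strand: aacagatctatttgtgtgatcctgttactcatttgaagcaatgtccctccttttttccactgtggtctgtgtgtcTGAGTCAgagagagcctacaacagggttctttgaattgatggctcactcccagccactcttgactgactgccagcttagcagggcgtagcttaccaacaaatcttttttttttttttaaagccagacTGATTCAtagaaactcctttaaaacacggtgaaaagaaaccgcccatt
CPA4, AP-1 sites, chr7:130292911-130293160, plus strand: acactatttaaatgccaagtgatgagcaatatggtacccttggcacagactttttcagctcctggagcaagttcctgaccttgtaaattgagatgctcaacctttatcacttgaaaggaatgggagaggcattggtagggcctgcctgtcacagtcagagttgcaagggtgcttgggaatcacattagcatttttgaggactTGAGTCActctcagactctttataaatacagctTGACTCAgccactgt

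EGR1 held 2 matches to the CArG box, at -105 to -96 and at -83 to -74 from the start. VGF held 1 match to the CRE (TGACGTCA) at -79 to -72. EMP1 held AP-1 matches (TGANTCA) at -175 to -169 and at -48 to -42, and CPA4 held them at -48 to -42 and at -15 to -9. Both strands were searched, and no match of one of these motifs overlapped a match of another in these windows. In the 27305 promoters of the RefSeq table, 1.14% held a CArG box, 6.6% an AP-1 site and 1.77% a CRE. Among the 14809 of them that belong to genes tested here, the shares were 1.2%, 4.97% and 2.34%. Of the 48 genes with a called rise of at least 2-fold and a promoter in that table, EGR1 was the 1 gene with a CArG box, 5 genes (10.4%) held an AP-1 site (CPA4, EMP1, S100A2, SERPINB8 and SGMS2) and 2 genes held a CRE (VGF and MAFF). Of the 27 matched genes with a called fall of at least 2-fold, 3 (11.1%) held an AP-1 site, namely NREP, PRLR and TENT5B, and 1, ARG2, held a CRE. A match describes these letters and does not show that a factor binds there.

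Across all genes, 15.6% were called between aFGF and DMSO at a limma adjusted p under 0.05 (Benjamini-Hochberg), 5.92% higher and 9.72% lower with aFGF. The groups did not overlap in 50.5% of all genes, so an absence of overlap alone says little. Most called changes were small. The median called rise was 0.39 and the median called fall -0.39 on the log2 scale, and 2455 of the 2979 called genes changed by less than 1.5-fold. Large changes were mostly rises: 69 genes rose at least 2-fold against 32 that fell as far, and 12 rose at least 4-fold against 1. Of the 69, 49 had other probe sets, 141 in all, of which 138 moved the same way and 122 were called the same way. None was called the opposite way. Of the 32 that fell, 26 had 70 other probe sets, with 64 of the same sign, 43 called the same way and none called the opposite way. Values on the arrays with AZD4547 added are set beside these below, with no test. Without aFGF replicate 1 the number of called genes was 1239, and without aFGF replicate 2 it was 1147. Against a smallest change of 1.2-fold, limma's treat test called 493 genes.

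**Figure D1:**
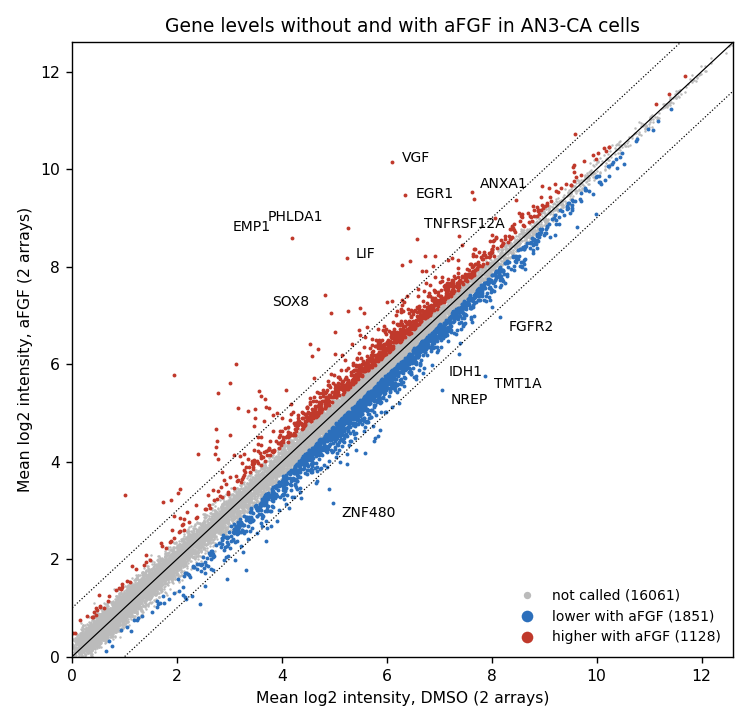
Mean log2 intensity of 19040 genes in the 2 DMSO arrays (x axis) and the 2 aFGF arrays (y axis), with called genes in red (1128 higher) and blue (1851 lower). The solid line marks equal levels and the dotted lines a change of 2-fold. The points farthest from the line lie above it, led by EMP1 and VGF.

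GDF15, a stress-induced member of the TGF-β superfamily, read 26.5 and 29.9 in DMSO, 184 and 161 with aFGF and 13.5 and 13.7 with AZD4547 added, in linear intensity units. CLCF1, a cytokine of the IL6 family, read 7.36 and 8.88 in DMSO, 52 and 46.2 with aFGF and 6.32 and 7.18 with AZD4547 added. TNFRSF12A, the receptor of the cytokine TWEAK, read 92.4 and 99, then 380.2 and 380.3, then 49.9 and 51.2, in the same order. In all of them the AZD4547 arrays lay below the DMSO arrays. That both aFGF arrays lay above both DMSO arrays follows from the choice of genes. The log2 fold changes were 2.61 for GDF15 (SE 0.087, limma adjusted p 8.51e-09), 2.60 for CLCF1 (SE 0.12, limma adjusted p 1.45e-07) and 1.99 for TNFRSF12A (SE 0.059, limma adjusted p 2.57e-09).

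SOX8, a transcription factor of the SOX E group, read 31.6 and 29.9 in DMSO, 134 and 131 with aFGF and 20.5 and 21.7 with AZD4547 added. ANXA1, a calcium-dependent phospholipid-binding protein, read 187 and 206 in DMSO, 730.1 and 748 with aFGF and 173 and 154 with AZD4547 added. SCG2, a granin of dense-core secretory vesicles like VGF, read 6.41 and 7.03 in DMSO and 25.6 and 25.1 with aFGF. Each rose by about the same amount on the log2 scale, 2.11 for SOX8 (SE 0.071), 1.91 for ANXA1 (SE 0.067) and 1.92 for SCG2 (SE 0.11), with limma adjusted p-values of 8.64e-09, 1.1e-08 and 7.96e-07. The DMSO level of SCG2 was below the array medians, which run from 7.176 to 7.428, which leaves the size of this change uncertain. Further rises, read after their values were seen, were those of UPP1, which splits uridine, at 77.2 and 78.8 against 257 and 264 (log2 fold change 1.74), and of THBS1, the matrix protein thrombospondin 1, at 229 and 180.5 against 652 and 696 (1.73).

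The largest falls were smaller than the largest rises. MYO10, an unconventional myosin of filopodia, read 57.3 and 51.2 in DMSO, 21.5 and 21.3 with aFGF and 66.2 and 63.3 with AZD4547 added. PRPH, the intermediate filament peripherin, read 58.5 and 55.6, then 22.6 and 23.1, then 65.7 and 74.3. IDH1, the NADP-dependent isocitrate dehydrogenase of cytosol and peroxisomes, read 170.0 and 163, then 75.5 and 72.3, then 198 and 186. Chosen with both aFGF arrays below both DMSO arrays, each of these 3 genes was also lower with aFGF than with AZD4547 added. That comparison uses the same aFGF arrays, so the choice favours it. Their log2 fold changes were -1.34 (SE 0.077), -1.32 (SE 0.078) and -1.17 (SE 0.059), with limma adjusted p-values of 7.71e-07, 9.39e-07 and 2.81e-07. CA14, a membrane carbonic anhydrase (log2 fold change -1.29), DHRS13, a short-chain dehydrogenase (-1.18), and BDH1, which interconverts the ketone bodies (-1.12), fell as well. The other probe set of BDH1 changed by -0.06 and was not called. PRLR, the prolactin receptor, went from 12.3 and 13.5 to 5.82 and 4.53 and ARID5B, a DNA-binding chromatin protein, from 14.2 and 13.7 to 5.82 and 7.12, both under the array medians with aFGF. FGFR2, the receptor that is known to be mutated in this line, fell from 279.5 and 288 to 121 and 129 and read 379 and 393 with AZD4547 added (log2 fold change -1.18, SE 0.054, limma adjusted p 1.24e-07).

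**Figure D2:**
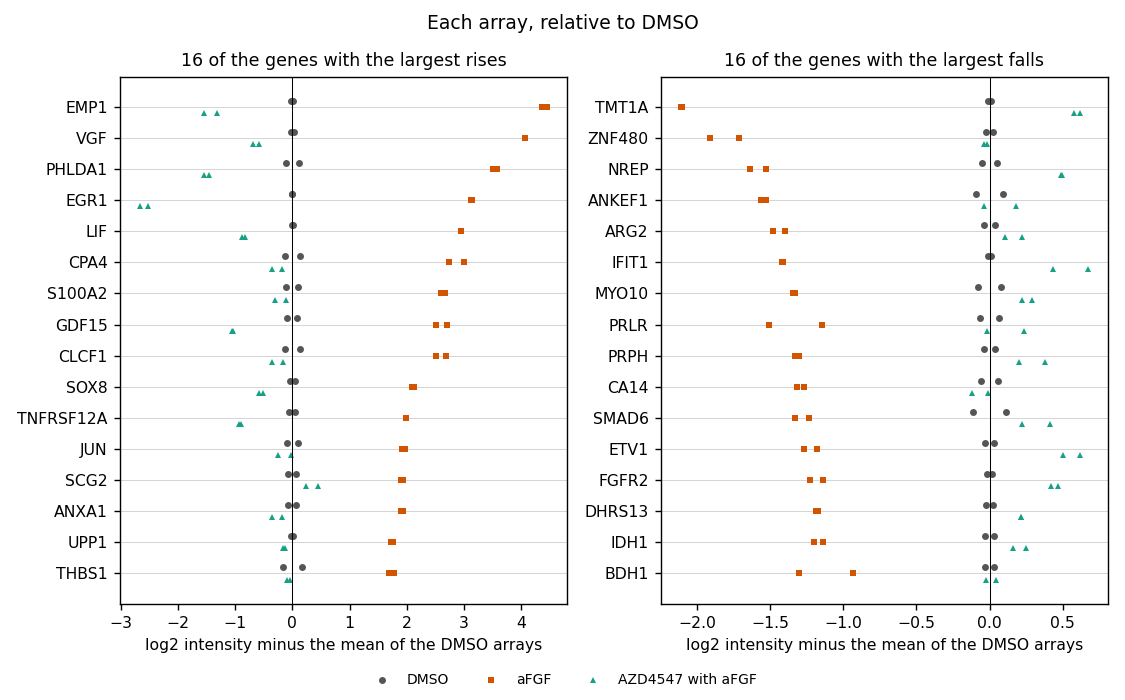
log2 intensity of each array minus the mean of the DMSO arrays, for 16 genes with large rises (left) and 16 with large falls (right). Circles are DMSO, squares aFGF and triangles AZD4547 with aFGF, 2 arrays each. In every gene drawn the aFGF arrays stand apart from the other 4 arrays. For the DMSO arrays this follows from the choice of genes with large called changes. For the AZD4547 arrays the choice favours it, because the same aFGF arrays are compared.

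AP-1, one of the transcription factors at the end of the cascade, is a dimer of FOS, JUN and related proteins. Of 15 AP-1 subunits, 7 rose and none fell, with a median log2 fold change of 0.24 against -0.008 over all genes. Counts in this and the later lists are to be read beside the 5.92% of all genes called higher and 9.72% called lower. JUN read 9.54 and 8.31 in DMSO and 33.5 and 34.7 with aFGF, a log2 fold change of 1.94 (SE 0.11, limma adjusted p 9.31e-07). MAFF, a small MAF protein, went from 10.8 and 11.2 to 27.8 and 25.3 (1.27, SE 0.098) and FOSL1 from 30.0 and 34.8 to 74.1 and 72.6 (1.18, SE 0.087). Both aFGF arrays were above both DMSO arrays in each of them, which for JUN follows from the choice of genes. For MAFF, FOSL1 and called genes of later lists, the choice of large called changes favours such a separation, also from the AZD4547 arrays. FOS and JUND, named after their values were seen, rose by 0.70 and 0.54. The 3 other probe sets of FOS were called the same way, with log2 fold changes from 1.02 to 2.18. FOSB read 12.9 and 14.9 against 13.5 and 14.6 and ATF3 4.83 and 5.76 against 5.5 and 4.87, with groups that overlapped and no call.

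The EGR factors and their corepressors moved in part. The largest rise was that of EGR1, from 80.9 and 81.0 to 713 and 705 (log2 fold change 3.13, SE 0.0635). Its 5 other probe sets were all called the same way. EGR2 went from 1.73 and 2.33 to 11 and 9.06, with a DMSO level far under the array medians, and NAB1, a corepressor of EGR proteins, from 16.8 and 17.1 to 24.3 and 21.4. The 2 other probe sets of EGR2 had log2 fold changes of -0.18 and 0.46, and neither was called. EGR3 was dim, meaning that both arrays of a group lay below their array medians, and was not called (3.79 and 4.22 in DMSO, 4.52 and 4.1 with aFGF). NAB1 was not called without aFGF replicate 1 (limma adjusted p 0.144). In all, 3 of 6 genes of this group rose. Of 20 ETS factors, 2 rose and 1 fell. The fall was that of ETV1, from 59.8 and 57 to 24.2 and 25.8 with 82.8 and 89.6 when AZD4547 was added (log2 fold change -1.23, SE 0.073, limma adjusted p 9.76e-07). Its relatives ETV4 (83.5 and 84.4 in DMSO, 77.7 and 77.4 with aFGF) and ETV5 (152 and 155 in DMSO, 142 and 144 with aFGF) were not called. The genes that rose, ELF1 and ELF4, were not called without DMSO replicate 1 or with either aFGF replicate left out. Of 17 Krüppel-like factors 3 rose and 2 fell, led by KLF10, a TGF-β-inducible repressor, at 92.4 and 81.1 against 271 and 285 (1.68, SE 0.086). The Krüppel-like falls numbered 1 without DMSO replicate 1 and with either aFGF replicate left out.

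Of 21 genes of the YAP and TEAD group, coactivators and factors at the end of the Hippo pathway with their targets, 6 rose (28.6%) and 2 fell. CCN1, a matricellular protein, went from 37.4 and 39.2 to 138 and 136. WWTR1, which encodes the coactivator TAZ, went from 51.2 and 43.7 to 127 and 137, and TEAD1, a DNA-binding partner of it, from 105 and 105 to 179.7 and 183. Their log2 fold changes were 1.84 (SE 0.087), 1.48 (SE 0.082) and 0.79 (SE 0.057). The aFGF arrays lay above the DMSO arrays in all of them. For CCN1 this follows from the choice of genes, and for WWTR1 and TEAD1 the choice favours it. With AZD4547 added, CCN1 read 39.5 and 32.6, WWTR1 38.8 and 39.6 and TEAD1 103 and 109.6. FJX1, a secreted kinase-like protein, rose by 1.01. Without aFGF replicate 1 the count of rises was 4 and that of falls 1. NR4A2, an orphan nuclear receptor of the early response, was the 1 gene that rose among 40 nuclear receptors, from 8.09 and 8.77 to 17 and 18 (1.05, SE 0.11), and 5 of them fell, or 2 with either aFGF replicate left out. The rises of this receptor list numbered 2 without DMSO replicate 2.

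MAP kinase phosphatases remove the phosphates from ERK, and 1 of 10 was called. That gene was DUSP5, at 59.4 and 58.9 against 70.8 and 66.9 (log2 fold change 0.22, limma adjusted p 0.0416). DUSP5 was not called with any 1 of the 4 arrays left out, with limma adjusted p-values of 0.0567 without DMSO replicate 1, 0.0613 without DMSO replicate 2, 0.317 without aFGF replicate 1 and 0.129 without aFGF replicate 2. DUSP6, a phosphatase selective for ERK, read 863 and 961 in DMSO and 927 and 968 with aFGF, far above the array medians, with overlapping groups and no call. Its log2 fold change was 0.06 (SE 0.059). Among 20 Sprouty, SPRED and other feedback genes, 6 rose (30.0%) and 2 fell. PHLDA1, PHLDA3, CBL and ERRFI1 were among the rises, so the count does not describe antagonists of RAS alone. PHLDA1, a pleckstrin homology-like protein, went from 41 and 35.3 to 431 and 451 and read 13.9 and 13 with AZD4547 added (3.53, SE 0.081, limma adjusted p 2.5e-10), with both aFGF arrays above the other 4. PHLDA3, which competes with AKT for membrane lipids, went from 81.5 and 74.6 to 159.7 and 158 (1.03, SE 0.064), while SPRY2 fell from 473 and 473 to 359 and 374 (-0.37, SE 0.048). Without aFGF replicate 2 the rises of this group numbered 3, and the falls numbered 1 with either aFGF replicate left out and 4 without DMSO replicate 2.

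Among secreted ligands and their receptors, the IL6 family is read first. Of 29 IL6-family cytokines, receptors and chemokines, 6 rose and none fell, and 21 were below the array median in both groups. The shared receptor subunit IL6ST (gp130) read 144 and 186 in DMSO and 243 and 260.5 with aFGF (0.62, SE 0.095, limma adjusted p 0.00108). LIFR, which pairs with it to bind LIF, read 7.11 and 8.21 in DMSO and 11.8 and 11.6 with aFGF. OSMR, the receptor subunit for oncostatin M, read 11.7 and 12.4 in DMSO and 15.6 and 17.9 with aFGF. All were higher with aFGF. LIFR was not called without aFGF replicate 1 (limma adjusted p 0.0547) or aFGF replicate 2 (0.0512), and OSMR was not called without DMSO replicate 1 (0.0519) or aFGF replicate 2 (0.149). Of 11 EGF-family ligands none rose and 2 fell, and 8 were below the array median in both groups. HBEGF read 27.7 and 28.7 against 31 and 30.3 and was not called. The EGF-family falls numbered 1 without DMSO replicate 2 and none without DMSO replicate 1 or with either aFGF replicate left out.

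In the TGF-β superfamily list, ligands and inhibitors moved both ways, with 3 of 32 genes higher (9.38%) and 6 lower (18.8%). SMAD6, an inhibitory SMAD of the BMP branch, read 59 and 50.3 in DMSO, 21.7 and 23.1 with aFGF and 72.6 and 63.4 with AZD4547 added. Its aFGF arrays also lay below its AZD4547 arrays, which the choice by these aFGF arrays favours. The log2 fold change of aFGF over DMSO was -1.28 (SE 0.094, limma adjusted p 5.83e-06). TGFB2 fell from 7.28 and 8.33 to 4.39 and 3.98, a dim level with aFGF, and FSTL1, a follistatin-like glycoprotein, from 139 and 131 to 94.5 and 89.8. The falls numbered 4 without aFGF replicate 1 and 3 without aFGF replicate 2.

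Of 33 plasminogen activators, serpins and metalloproteases with their inhibitors, 9 rose (27.3%) and 4 fell. PLAT, the tissue plasminogen activator, read 24.1 and 23.2 in DMSO and 70.2 and 73.9 with aFGF (1.60, SE 0.076). SERPINB8, an intracellular serpin, read 44.4 and 44.9 in DMSO and 148 and 137 with aFGF, and 19.6 and 19.4 with AZD4547 added (1.67, SE 0.069). The metalloprotease inhibitors TIMP1 and TIMP2 moved in opposite directions. TIMP1 went from 740.2 and 794 to 1685 and 1679.7 (1.13, SE 0.050, limma adjusted p 9.03e-08), whereas TIMP2 went from 194 and 194 to 119 and 122 (-0.68, SE 0.052, limma adjusted p 7.78e-06). Without aFGF replicate 2 the rises numbered 6. The falls numbered 1 without aFGF replicate 1, and 2 both without aFGF replicate 2 and without DMSO replicate 2.

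Adhesion and guidance genes followed other patterns. Of 38 integrins and laminins 4 rose and 2 fell, or 2 and none with either aFGF replicate left out. ITGB8, the β8 subunit, went from 11.2 and 9.26 to 33.1 and 32.7 (1.70, SE 0.11) and its partner ITGAV from 203 and 205 to 319 and 340.1 (0.69, SE 0.053). Of 44 collagens 1 rose and 4 fell, and 33 were dim in both groups; the rise was not called with DMSO replicate 1 or either aFGF replicate left out, 2 rises were called without DMSO replicate 2, and the falls numbered 2 without aFGF replicate 1. Of 71 ephrin, semaphorin, netrin and SLIT guidance genes 1 rose and 11 fell (15.5%), with EFNA4, a membrane-anchored ephrin, falling from 48.1 and 46.7 to 30.2 and 29.2 (-0.67, SE 0.071). Without aFGF replicate 1 the guidance falls numbered 3 and without aFGF replicate 2 they numbered 2, with no rise in either case, and 4 rises were called without DMSO replicate 2. In the Notch pathway the 2 effector genes named here, both encoding repressors of the HES and HEY family, moved apart: HEY1 went from 164 and 174 to 86.7 and 87 (-0.96, SE 0.057) and HES1 from 29.2 and 26.3 to 42.6 and 42.1 (0.61, SE 0.083). FZD2, a WNT receptor, fell from 86.7 and 97.1 to 53.5 and 52.5, in a list of 53 WNT genes with 4 rises and 4 falls. Each was 7.55% of that list, against 5.92% and 9.72% of all genes. Without aFGF replicate 1 that list held 1 rise, and without aFGF replicate 2 it held no rise and 1 fall.

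**Figure D3:**
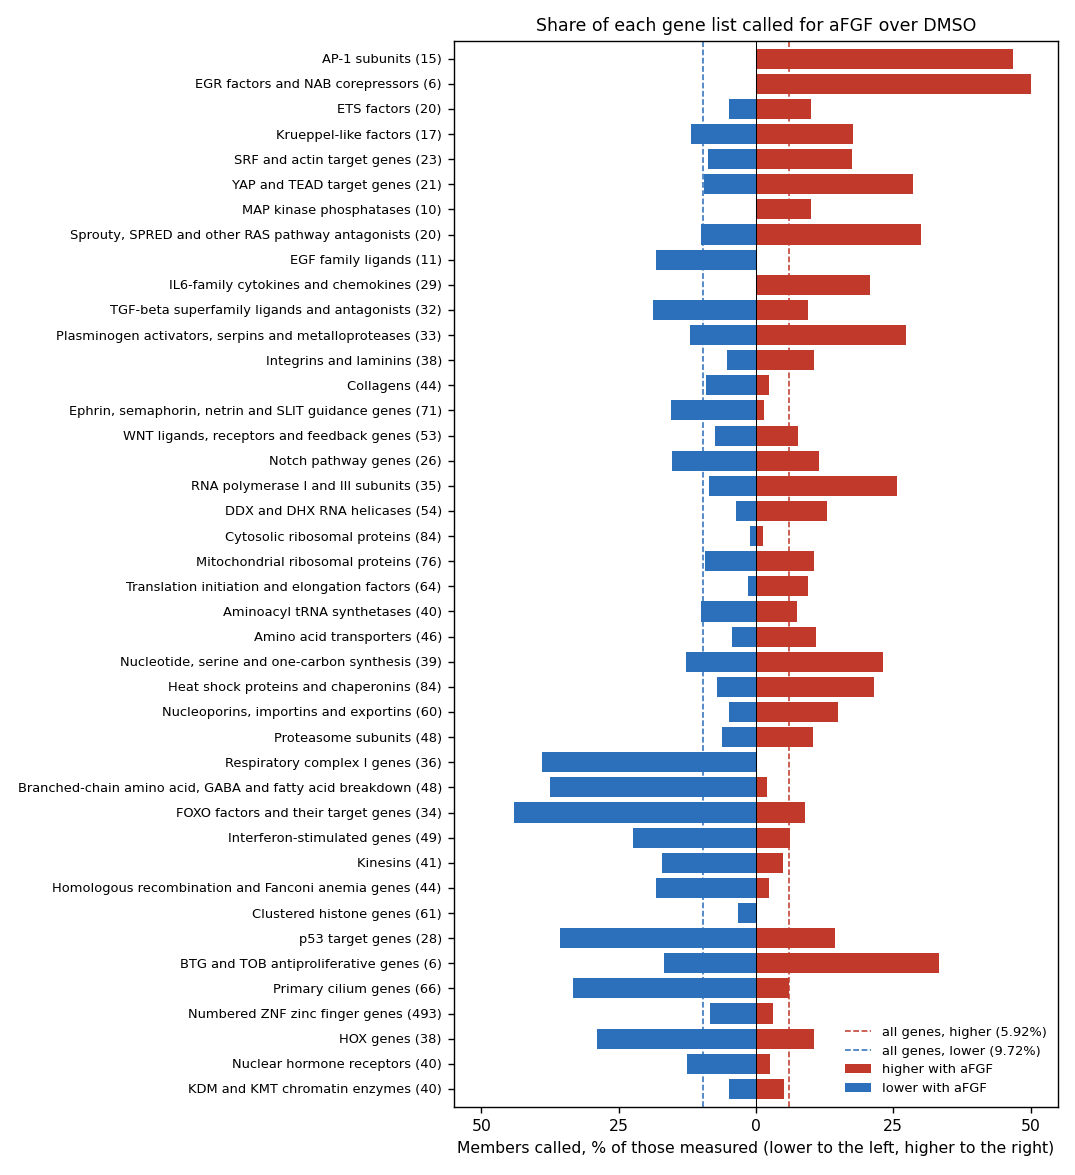
Share of each gene list called higher (red, to the right) or lower (blue, to the left) with aFGF, as a percent of the measured members given in parentheses. Dashed lines mark 5.92% and 9.72%, the shares of all 19040 genes. The FOXO, complex I, breakdown and p53 target lists reach furthest to the left.

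Lists of growth and synthesis held more rises than falls in several cases, by small amounts. Others were near even, with 8 rises and 7 falls among 76 mitochondrial ribosomal proteins. The counts were 3 and 4 among 40 aminoacyl tRNA synthetases and 5 and 3 among 48 proteasome subunits. RNA polymerases I and III make ribosomal RNA and transfer RNA. Of their 35 subunit genes 9 rose (25.7%) and 3 fell, with a median log2 fold change of 0.17, and POLR1B, a catalytic subunit of polymerase I, read 70.4 and 69.7 in DMSO and 98 and 94.5 with aFGF (0.46, SE 0.064). Of 84 cytosolic ribosomal proteins, by contrast, 1 rose and 1 fell. Without aFGF replicate 1 the polymerase rises numbered 4 and without aFGF replicate 2 they numbered 2, with no fall in either case. The ribosomal protein calls were 7 rises and 10 falls without DMSO replicate 2, 1 rise and 2 falls without DMSO replicate 1, and no rise and 1 fall with either aFGF replicate left out.

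KPNA4, an importin α that carries proteins into the nucleus, read 176 and 171 in DMSO, 349 and 346 with aFGF and 175 and 167 with AZD4547 added (1.01, SE 0.052, limma adjusted p 3.25e-07). SEH1L, a nucleoporin that also belongs to the GATOR2 complex, went from 70.9 and 67.9 to 113 and 118 (0.74), and IPO7, an import receptor, from 253 and 276 to 364 and 384 (0.50). In all, 9 of 60 nuclear transport genes rose and 3 fell, or 4 rises with either aFGF replicate left out. The nuclear transport falls numbered 1 without aFGF replicate 1, none without aFGF replicate 2 and 6 without DMSO replicate 2. Both subunits of the large neutral amino acid exchanger rose, SLC7A5 from 98.7 and 107 to 156 and 157 (0.61, SE 0.066) and SLC3A2 from 147 and 156 to 210.0 and 203 (0.45, SE 0.058). SLC7A1, a carrier of cationic amino acids, and SLC38A2, a carrier of small neutral ones, rose by 0.58 and 0.48. Of 46 amino acid transporters 5 rose (10.9%) and 2 fell (4.35%), against 5.92% and 9.72% of all genes. The transporter falls numbered 1 without DMSO replicate 1 and without aFGF replicate 1, and none without aFGF replicate 2.

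Of 39 genes of nucleotide, serine and one-carbon synthesis 9 rose (23.1%) and 5 fell. HPRT1, the purine salvage enzyme, went from 258 and 259.6 to 348 and 335 (0.40, SE 0.050). PPAT, the first committed step of purine synthesis, went from 48.7 and 47.9 to 66.4 and 63.1 (0.42) and was not called without aFGF replicate 1 (limma adjusted p 0.0707). PHGDH, which opens serine synthesis from a glycolytic intermediate, moved the other way, from 136 and 139 to 95.8 and 95.7 (-0.52, SE 0.056, limma adjusted p 0.000104). With either aFGF replicate left out the rises numbered 2, and the falls numbered 3 without aFGF replicate 1 and 8 without DMSO replicate 2.

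Chaperones counted 18 rises (21.4%) and 6 falls among 84, with a median log2 fold change of 0.09. HSPA13, a microsomal member of the HSP70 family, read 69.4 and 71.3 in DMSO and 106 and 107 with aFGF (0.59, SE 0.059). HSPA8, the constitutive HSP70, read 3341 and 3251 in DMSO and 3851 and 3850.3 with aFGF (0.22, SE 0.041). It was not called without aFGF replicate 1 (limma adjusted p 0.0724) or aFGF replicate 2 (0.0734). The largest change in the list was a fall, that of the HSP40 co-chaperone DNAJB5, from 22.9 and 18.6 to 9.34 and 9.78 (-1.11, SE 0.12). Its 2 other probe sets changed by -0.31 and -0.18, and neither was called. The chaperone rises numbered 28 without DMSO replicate 2, 5 without aFGF replicate 1 and 4 without aFGF replicate 2, and the falls numbered 2 with either aFGF replicate left out.

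Branched-chain amino acids, GABA and fatty acids are broken down to acyl-CoA units in mitochondria. Of 48 genes of these routes 18 fell (37.5%) and 1 rose, with a median log2 fold change of -0.16 against -0.008 over all genes. ALDH6A1, of the valine route, read 18.5 and 17.8 in DMSO, 10.4 and 9.08 with aFGF and 24.2 and 25.3 with AZD4547 added. ACADSB, of the isoleucine route, read 15 and 12.8, then 8.25 and 7.67, then 13.6 and 15.6. BCKDHB, a subunit of the branched-chain ketoacid dehydrogenase, read 43.6 and 35.2, then 25.8 and 22.6, then 47.1 and 43.3. Each was lower on the aFGF arrays than on the other 4, with log2 fold changes of -0.90 (SE 0.099), -0.80 (SE 0.12) and -0.70 (SE 0.11).

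Of the 10 genes that lead from the branched-chain ketoacid dehydrogenase to methylmalonyl-CoA mutase, a subset drawn after the values were seen, 7 fell and none rose, with 4 falls called with either aFGF replicate left out. CPT1A, which admits long fatty acids to mitochondria, fell from 78.6 and 75.1 to 48.8 and 49.6 (-0.64, SE 0.063, limma adjusted p 5.25e-05). HADHB, the β subunit of the trifunctional protein of fatty acid oxidation, was the 1 gene that rose, from 143 and 142 to 160.4 and 174 (0.23), and it was not called without aFGF replicate 1 (limma adjusted p 0.0702) or aFGF replicate 2 (0.265). The falls of the breakdown list numbered 8 without aFGF replicate 1 and 10 without aFGF replicate 2, and 3 rises were called without DMSO replicate 2. PPARA, a nuclear receptor known to drive genes of fatty acid oxidation, went from 12.9 and 13.5 to 8.37 and 8.0 (-0.69, SE 0.097); it was not called when all its probe sets were averaged.

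Respiratory complex I, the entry of NADH electrons, had 14 falls (38.9%) and no rise among 36 genes, each of small size. The changes ran from -0.39 to 0.09 on the log2 scale with a median of -0.14. NDUFA3 read 456 and 445 in DMSO and 356 and 365 with aFGF (-0.32, SE 0.047, limma adjusted p 0.000831). NDUFB10 read 267 and 264 in DMSO and 211 and 211 with aFGF (-0.33, SE 0.056). Both are accessory subunits, and their groups did not overlap, which the choice of called genes favours. The count was sensitive to single arrays, with 2 falls called with either aFGF replicate left out. It was 1 in the fit with no intensity trend, in which NDUFB10 was not called.

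**Figure D4:**
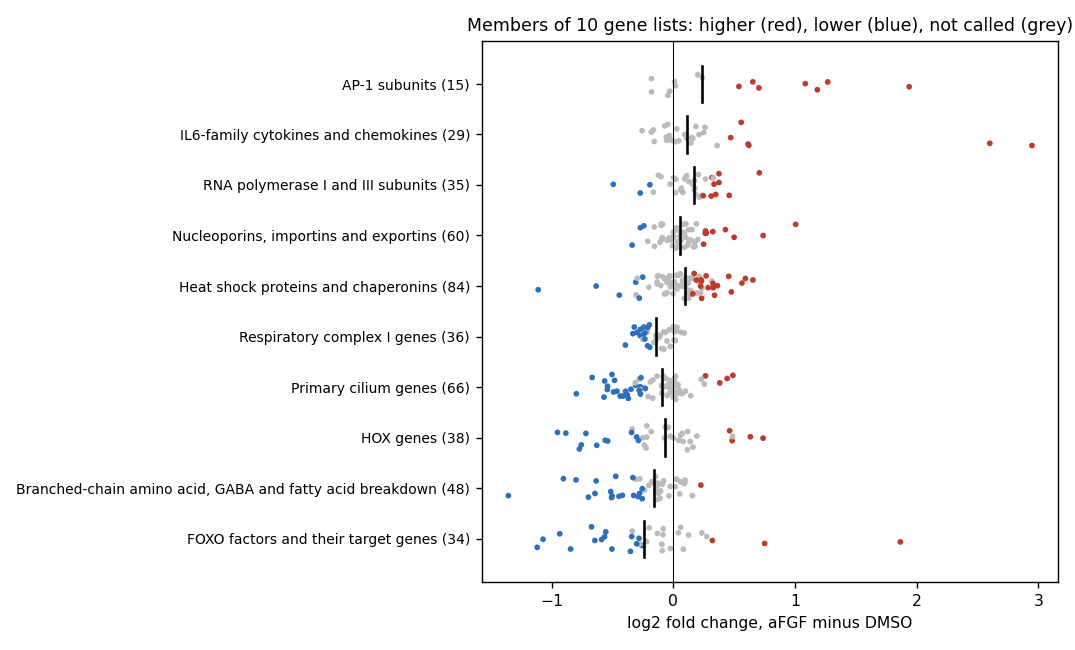
log2 fold change, aFGF minus DMSO, of each measured member of 10 gene lists, with called genes in red (higher) and blue (lower), uncalled genes in grey and the median of each list as a black bar. The members of complex I lie between -0.39 and 0.09, whereas the FOXO list runs from -1.12 to 1.87.

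The FOXO factors are known to switch on genes of cell cycle exit, catabolism and stress defence when AKT is inactive. Of 34 FOXO factors and target genes 15 fell (44.1%) and 3 rose, with a median of -0.24. CITED2, a transcriptional coregulator, read 25.6 and 25.6 in DMSO, 11.7 and 12.7 with aFGF and 29.5 and 30.2 with AZD4547 added. CCNG2, a cyclin tied to cell cycle arrest, read 34 and 33.6, then 18 and 19.7, then 59.2 and 52.9. SESN1, a stress-induced inhibitor of mTORC1, read 39.1 and 42.3, then 27.5 and 26.6, then 48.6 and 51. All were lowest on the aFGF arrays, with log2 fold changes of -1.07 (SE 0.086), -0.84 (SE 0.084) and -0.59 (SE 0.076). SESN1 and CAT, the peroxisomal catalase, which fell by 0.56, were named after their values were seen. The falls of this list numbered 9 with either aFGF replicate left out.

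Some members went against the others. TRIB1, a pseudokinase, rose from 22.6 and 23.9 to 84.4 and 85.1 (1.87, SE 0.072) and read 23.6 and 23.6 with AZD4547 added. PDK4, which shuts pyruvate dehydrogenase, rose from 59.6 and 66.5 to 104 and 108 (0.75, SE 0.069, limma adjusted p 3.42e-05) and stayed high with AZD4547 added, at 113 and 108. The other pyruvate dehydrogenase kinases fell: PDK2 from 18.2 and 20.8 to 10.9 and 13.7, PDK1 from 35.3 and 41.2 to 28.6 and 31.2 and PDK3 from 33 and 39.8 to 29.9 and 28.9. PDK1 and PDK3 were not called without DMSO replicate 2 (limma adjusted p 0.117 and 0.192), aFGF replicate 1 (0.245 and 0.191) or aFGF replicate 2 (0.095 and 0.256), and PDK2 was not called without aFGF replicate 1 (0.0778). PDK1, PDK2 and PDK3 were named after their values were seen.

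Targets of p53 did not move as 1 group. Of 28, 4 rose and 10 fell (35.7%), and the median was -0.01. TP53INP1, a stress protein of autophagy and cell death, read 37.4 and 47.4 in DMSO and 20.7 and 23.9 with aFGF (-0.92, SE 0.11). DDB2, a sensor of ultraviolet damage, read 53 and 58.6 in DMSO and 30.4 and 31.4 with aFGF (-0.85, SE 0.072). CDKN1A, the CDK inhibitor p21, was higher, at 6.2 and 8.5 against 16.3 and 11.8 (0.93, SE 0.18), but was not called without aFGF replicate 1 (limma adjusted p 0.0871). MDM2, the ubiquitin ligase of p53, read 33 and 32.1 in DMSO and 32.3 and 34.9 with aFGF, with overlapping groups and no call. The falls numbered 6 without aFGF replicate 2.

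Of 44 genes of homologous recombination and the Fanconi anemia pathway 8 fell (18.2%) and 1 rose, with a median of -0.15. The falls numbered 13 without DMSO replicate 2, 3 without aFGF replicate 1 and 1 without aFGF replicate 2, and the rise was not called with any 1 of the 4 arrays left out. Of 41 kinesins 7 fell and 2 rose, led by KIF20A, a mitotic kinesin of cytokinesis, from 156 and 132 to 90.9 and 87.6 (-0.68, SE 0.074). The kinesin falls numbered 4 with either aFGF replicate left out, and the rises 1 without DMSO replicate 1, 1 without aFGF replicate 1 and none without aFGF replicate 2. Of 49 interferon-stimulated genes 11 fell (22.4%) and 3 rose, or 7 falls with either aFGF replicate left out.

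The primary cilium is the single antenna-like organelle in which Hedgehog signals are received, and intraflagellar transport (IFT) proteins build it. Of 66 primary cilium genes 22 fell (33.3%) and 4 rose, with a median of -0.10. The Hedgehog receptor PTCH1 read 53.1 and 45.3 in DMSO, 29.2 and 27.3 with aFGF and 56.7 and 53.5 with AZD4547 added. IFT88, a core part of the transport complex, read 25.2 and 24.7, then 15.8 and 15.6, then 28.6 and 28.1. SMO, the transducer that PTCH1 restrains, read 154 and 129, then 95.9 and 97.2, then 133 and 135. Both aFGF arrays were lowest in each, with log2 fold changes of -0.80 (SE 0.087), -0.67 (SE 0.081) and -0.54 (SE 0.076) and limma adjusted p-values of 0.000116, 0.000226 and 0.000599.

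Within the cilium list, 8 of 16 IFT genes fell and 1 rose, and 4 of 6 Hedgehog receptors and GLI-related genes fell, in subsets drawn after the values were seen. GLI3, one of these falls (limma adjusted p 0.0488), was not called with median centring, with no intensity trend or when its probe sets were averaged. Of the 8 other probe sets of GLI2, which also fell, 5 had the same sign and 1 was called the same way. The IFT falls numbered 5 without DMSO replicate 1, 3 without aFGF replicate 1 and 2 without aFGF replicate 2, with no rise in these fits, and the Hedgehog falls 2 without aFGF replicate 2. GLI1, a transcription factor that Hedgehog signals are known to induce, read 18.3 and 15.2 in DMSO and 17.1 and 16.1 with aFGF, with overlapping groups and no call. ARL3, a small GTPase of ciliary cargo release, went from 144 and 154 to 101 and 100.3 (-0.56) and was not called when its probe sets were averaged. The falls of this list numbered 8 without aFGF replicate 1 and 6 without aFGF replicate 2, and the rises 2 and 1. The rises also numbered 2 without DMSO replicate 1 and 2 without DMSO replicate 2.

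HOX genes set position along the body axis and, in the uterus, the identity of its segments. Of 38, 11 fell (28.9%) and 4 rose. In the HOXA cluster 6 of 10 genes fell and none rose. HOXA5 read 198 and 198 in DMSO, 115 and 117 with aFGF and 222 and 233 with AZD4547 added. HOXA6 read 46.8 and 49.1, then 27.3 and 24.7, then 50.5 and 52.8. Each was lowest on both aFGF arrays, with log2 fold changes of -0.77 (SE 0.054, limma adjusted p 3.57e-06) and -0.88 (SE 0.077, limma adjusted p 2.29e-05). HOXA13 fell from 23.1 and 15.1 to 10.0 and 9.3 (-0.95) and was not called without aFGF replicate 2 (limma adjusted p 0.0583). HOXA2 fell by 0.76, but its other probe set changed by 0.17 and was not called.

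The rises lay in the other clusters. HOXB9 read 67.9 and 64 in DMSO, 104 and 101 with aFGF and 57.3 and 62.4 with AZD4547 added (0.63, SE 0.068, limma adjusted p 0.000106). HOXC10 read 340.1 and 342, then 481 and 459, then 219 and 235 (0.46, SE 0.053, limma adjusted p 0.000164). Both were highest on the aFGF arrays and were named after their values were seen, as was the split by cluster. In HOXB and HOXC together the calls were mixed, with 2 rises and 2 falls among 10 HOXB genes and 2 rises and 3 falls among 9 HOXC genes. None of 9 HOXD genes was called, and 8 of them were dim in both groups. The difference between clusters was not tested. The HOX falls numbered 7 without aFGF replicate 2, and the rises 2 without aFGF replicate 1. HOXB then held 1 rise with either aFGF replicate left out, and HOXC held 1 rise without aFGF replicate 1 and 1 fall without aFGF replicate 2.

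Defining markers were read for the labelled cell type and for others. Of 20 endometrial and epithelial markers, 11 were below the array median in both groups, EPCAM (1.3 and 1.38 in DMSO) and CDH1 (1.95 and 2.47) among them, although the line is labelled as endometrial cancer. HOXA10 (149.9 and 130.0), HOXA11 (40.4 and 47) and PAX2 (23.4 and 22.8), transcription factors of the Müllerian tract, and MUC1 (22.3 and 21.8) were above it. None of these 6 was called between aFGF and DMSO, and 1 marker of the list rose and 1 fell. Of 8 endothelial, 10 leukocyte and 7 smooth muscle markers none was called, and 5, 8 and 4 of them were dim in both groups. Of 10 fibroblast markers 8 were dim, 1 rose and 1 fell, and neither was called with either aFGF replicate left out. The endometrial calls were 1 rise and no fall without aFGF replicate 1, none without aFGF replicate 2, and 1 rise and 2 falls with either DMSO replicate left out. In these bulk samples, fewer cells with a transcript and less of it per cell cannot be told apart.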

How the data were processed

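Total RNA (500 ng per sample) was extracted with TRIzol and labelled as biotinylated cRNA for Affymetrix arrays, per the labels' protocols. The deposited intensity values were made with RMA, per the submitters' processing notes, which name no version; they are on a linear scale (0.75 to 6344.2), and the sources used here do not give the array type. RMA sets the arrays to 1 distribution, so a change is relative to the other transcripts. Both deposited tables held the same values (largest difference 0).

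Each of 19040 genes was read from its brightest probe set by mean over the 6 arrays, among 47340 of 49293 probe sets with 1 symbol, brought up to date through RefSeq; 1457 had several symbols and 496 none. The log2 intensities of all 6 arrays were fitted with limma 3.58.1 (R 4.3.3, eBayes with trend), with Benjamini-Hochberg adjustment and 2-sided tests. All adjusted p-values are limma's. The table holds no detection calls, and "dim" means that both arrays of a group read below the medians of those arrays. In simulated arrays of these 19040 genes, 200 genes were given a change. There limma called 34.6% of the genes given a log2 change of 0.5, 81.4% at 1, 99% at 2, and 0.0223% of unchanged genes. The data held 2979 calls, so the adjusted cutoff differed and these shares do not carry over to them. Precision is limited by the number of arrays (median SE 0.117).

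The members and lists were chosen with earlier results of these data known. Genes named were the 20 called genes that rose most and the 20 that fell most, with groups apart, and of each list up to 4 called members with the largest changes. Uncalled members are given as values, and other genes are marked. Some genes taken by this rule are left out. Deposited ratios and p-values were not used. The lists were described by counts and medians and not tested.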

Additional observations from a re-analysis of the deposited data

How the results depend on the processing

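Over 15 alternative settings, none of the 254 called genes among the 257 named changed direction. In many settings this was fixed in advance. The fit on 4 arrays, the fit with no trend, treat and the replicate block leave each fold change as it was. So do the series matrix and the removal of genes with a low mean. For genes whose groups did not overlap, neither leaving out 1 array nor the offset of 8 could change the direction. Only median centring, a second quantile normalization, averaging of probe sets and removal of _x_at probe sets could have reversed such a gene. Leaving out 1 array at a time gave between 1147 and 3448 called genes, 450 to 1331 of them higher and 684 to 2117 lower, with limma adjusted p-values; an arm left with 1 array was assumed to vary like the others. With no intensity trend limma called 1489 genes (580 higher, 909 lower), and against a change of 1.2-fold treat called 493 (220 higher, 273 lower), all of them among the 2979 calls. The fit on 4 arrays called 2326, of which 2315 were shared with the 2979. Median centring and a second quantile normalization gave totals within 1.5 times of 2979. Their splits were more even, at 1287 higher and 1470 lower, and 1296 higher and 1612 lower, against 1128 and 1851. An offset of 8, averaging of probe sets and removal of _x_at probe sets also stayed within 1.5 times of 2979. So did the series matrix, and removal of genes with a mean over all arrays below the array median. The replicate block called 3302 genes. Replicate numbers were not used as pairs in the main fit. Deviations of same-numbered DMSO and aFGF arrays correlated at 0.055 over 10408 brighter genes. The values were 0.142 for DMSO and AZD4547 arrays and -0.056 for aFGF and AZD4547 arrays. Of the 254 named calls, 137 were lost under treat, 82 without aFGF replicate 2, 69 without aFGF replicate 1, 54 with no trend and none under the block. Calls on dim genes are of uncertain size, and small changes were often not detectable with 2 arrays a group.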
